A study of Mus musculus with 11 samples.

Results

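Mouse embryonic stem (ES) cells grown in KOSR/LIF were set against the same lines grown in serum/LIF, so that the effect of replacing serum on gene expression could be read with LIF kept in both media. Arrays were taken by their titles, 3 of KOSR/LIF and 3 of serum/LIF, which makes 6 of the 11 arrays in the series. The other 5 arrays, of 2i/LIF, entered the estimate of spread, the filter on dim probes and the choice of the probe for each gene. They were not part of the contrast. LIF is leukaemia inhibitory factor, a cytokine that keeps mouse ES cells self-renewing through STAT3. KOSR is a defined serum substitute, and serum/LIF is the standard medium. All cells were of the 129/Ola background, were not sorted, and had spent at least 3 passages in their medium. Each medium was measured once in each of 3 ES cell lines (E14, HVJu9.3 and HVJu5.1), which the submitters treat as independent clones. By the labels, KOSR/LIF replicates 1, 2 and 3 were E14, HVJu9.3 and HVJu5.1, and serum/LIF replicates 1, 2 and 3 were HVJu5.1, HVJu9.3 and E14.

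ES cells in culture are a mixture of states, and the medium shifts that mixture. Serum brings a poorly defined load of growth factors, BMP activity, lipids and hormones, while the serum substitute is built on albumin, insulin and transferrin. Some ES cells drift towards primitive endoderm, the yolk sac lineage, or switch on germ cell genes that promoter DNA methylation otherwise keeps silent, and the colonies are themselves an epithelium held together by E-cadherin and claudins.

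Levels below are log2 intensities relative to the 75th percentile of the same array, so 0 is a fairly bright probe, and a change is the mean KOSR/LIF level minus the mean serum/LIF level, given as estimate ± standard error. Values for single arrays are in the order of replicates 1, 2 and 3. The arrays were not of equal quality. KOSR/LIF replicate 3 had a 75th percentile of 65.3 intensity units and 43.7% of probes well above background, against 230 and 268 units and 59.4% on the other KOSR/LIF arrays, and 179 to 495 units and 56.6% to 70.9% on the serum/LIF arrays. It lay more than 1 log2 unit above both other KOSR/LIF arrays in 1954 genes and more than 1 below both in 1820, out of 16279, while no other of the 6 arrays exceeded 415 genes in either direction. The kinase cofactor gene Mob3c showed the widest such gap, with -3.54, -3.29 and 6.78 on the KOSR/LIF arrays and -3.34, -3.21 and -2.86 on the serum/LIF arrays. The endothelial adhesion receptor gene Adgra2, with 0.07, 0.31 and 7.04 on KOSR/LIF and -0.43, -1.47 and -0.74 on serum/LIF, and the growth factor gene Fgf8, with -2.05, -1.96 and 3.81 on KOSR/LIF and -1.42, -1.69 and -0.51 on serum/LIF, were likewise bright on that array alone. Cacna1h, Nxnl1 and H4c9, a calcium channel, a photoreceptor and a histone gene, were bright on that array in the same way, at 7.01, 4.99 and 6.68 on KOSR/LIF replicate 3 and no more than 0.16 on the other KOSR/LIF arrays. In the other direction the ribosome assembly gene Bms1 stood at 2.26, 2.00 and -1.01 on KOSR/LIF and 1.45, 1.96 and 1.36 on serum/LIF. The cilia gene Arl3 had the widest such gap, -3.53 from the nearer KOSR/LIF array, the spindle gene Haus7 had a gap of -3.02, and Coa7 and Aldh2, 2 mitochondrial genes, stood at 2.13, 2.60 and -0.75 and at 3.08, 3.28 and 0.24 on the KOSR/LIF arrays. KOSR/LIF replicate 3 and serum/LIF replicate 3 were each the only array of either medium on their slide and scan day, so the comparison within scan day 1 leaves out both and has 2 arrays of each medium.

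The authors' own value table did not always hold what the scanner files of the same name hold. Across 21912 probes well above background on every array, the serum/LIF columns of the table matched their own scanner files (r = 0.999, 0.999 and 0.998). The column of KOSR/LIF replicate 1 matched the scanner file of replicate 2 (r = 0.999, against 0.990 with its own), and the column of replicate 2 matched the scanner file of replicate 1 (r = 0.999, against 0.989). The column of KOSR/LIF replicate 3 matched no scanner file, with r = 0.986 to the scanner file of KOSR/LIF replicate 1, 0.980 to that of replicate 2 and 0.911 to its own. Which of E14 and HVJu9.3 gave KOSR/LIF replicates 1 and 2 is therefore unsettled here, and the table holds for replicate 3 a measurement that the scanner files do not. Across genes, that column had r = 0.978 and 0.983 with the other KOSR/LIF columns and 0.966, 0.967 and 0.974 with the serum/LIF columns, while the scanner file of KOSR/LIF replicate 3 had 0.936 and 0.931 with the other KOSR/LIF arrays and 0.919, 0.917 and 0.911 with the serum/LIF arrays. Results are therefore given for the scanner files with all 3 KOSR/LIF arrays, and without replicate 3 or in the value table where these change a call, or where leaving out an array moves by over 1.5 times the change of a called gene seen above background in both media. Changes in the value table were smaller than on the scanner files by over 1.5 times in 51 of the 100 called genes named by rule, and larger by that much in 1. How the table was scaled is not given by the labels or headers. Its values are linear intensities with near-equal column medians, and its direction follows the labels.

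**Figure D1:**
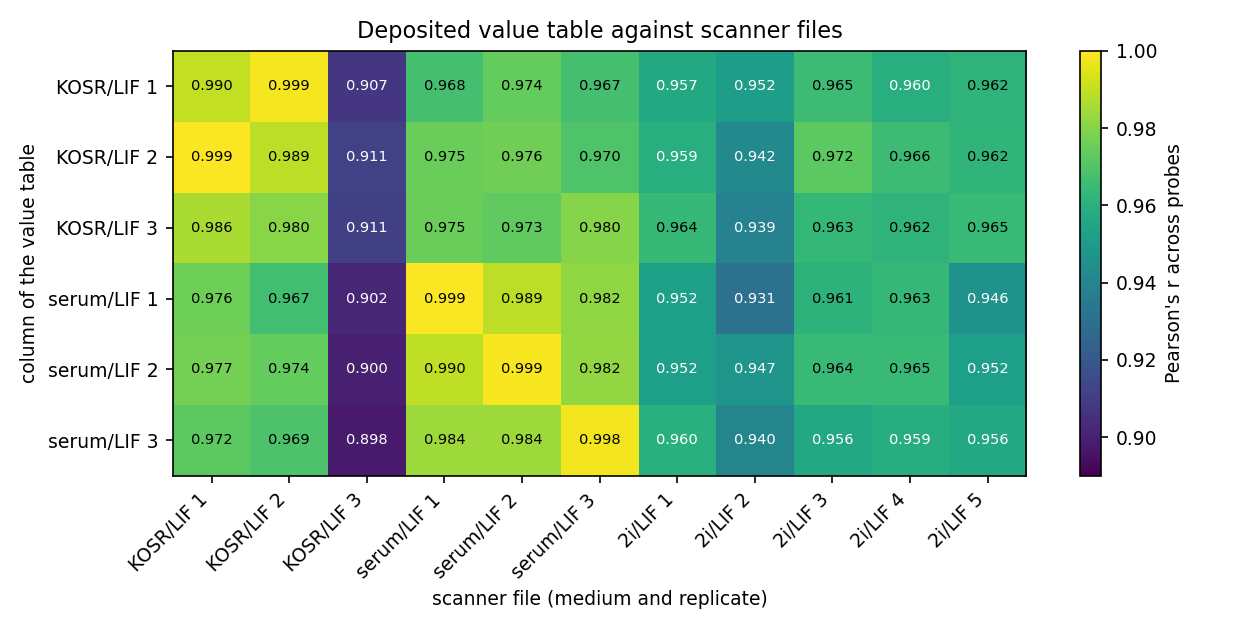
Pearson's r across 21912 probes between the columns of the deposited value table (rows) and the scanner files (columns), for KOSR/LIF and serum/LIF. The serum/LIF columns peak on their own files, the first 2 KOSR/LIF columns peak on each other's files, and the column of KOSR/LIF replicate 3 reaches no more than 0.986 with any file.

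Of 16279 genes tested, 385 were higher (2.37%) and 359 lower (2.21%) in KOSR/LIF than in serum/LIF (limma, Benjamini-Hochberg adjusted p under 0.05), and 375 and 351 of them differed by at least 2-fold. In all 385 and 359 genes the 3 KOSR/LIF arrays lay clear of the 3 serum/LIF arrays, as they did in 2021 genes upwards and 2602 downwards over all genes tested. Without KOSR/LIF replicate 3, 356 genes were higher (2.19%) and 275 lower (1.69%), of which 270 and 234 were also called with it. The value table gave 379 higher (2.33%) and 339 lower genes (2.08%), and 205 higher and 190 lower genes were called in all 3 versions. Within scan day 1 there were 402 higher and 283 lower genes, and with scan day as a block 554 and 445. No gene called with all arrays changed sign on the table. Without replicate 3 none could, since the arrays of both media lay clear of each other in every called gene. With cell line as a block in the 6 arrays, 299 genes were higher and 182 lower (327 and 203 with the lines of KOSR/LIF replicates 1 and 2 exchanged). Leaving out 1 array at a time gave between 123 (without serum/LIF replicate 1) and 356 higher genes (without KOSR/LIF replicate 3), and between 102 (without serum/LIF replicate 1) and 275 lower ones (without KOSR/LIF replicate 3). The counts in the other such fits were 205 and 189 without KOSR/LIF replicate 1, 181 and 205 without KOSR/LIF replicate 2, 167 and 164 without serum/LIF replicate 2, and 248 and 142 without serum/LIF replicate 3. There were 104 higher and 91 lower genes that passed in every one of these fits. Since 66 of the 100 genes named here by rule and called with all arrays lost the call in at least 1 of the 6 fits, the highest adjusted p of the 6 is given with the genes described, and a gene said to hold in all 6 passed in each of them. Among the genes described, Hoxa3, Id1, Ccn2, Spry1, Selenow, Steap3, Tek, Trp53inp1, Zfp352 and Kctd12b lost the call in each of the 6.

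**Figure D2:**
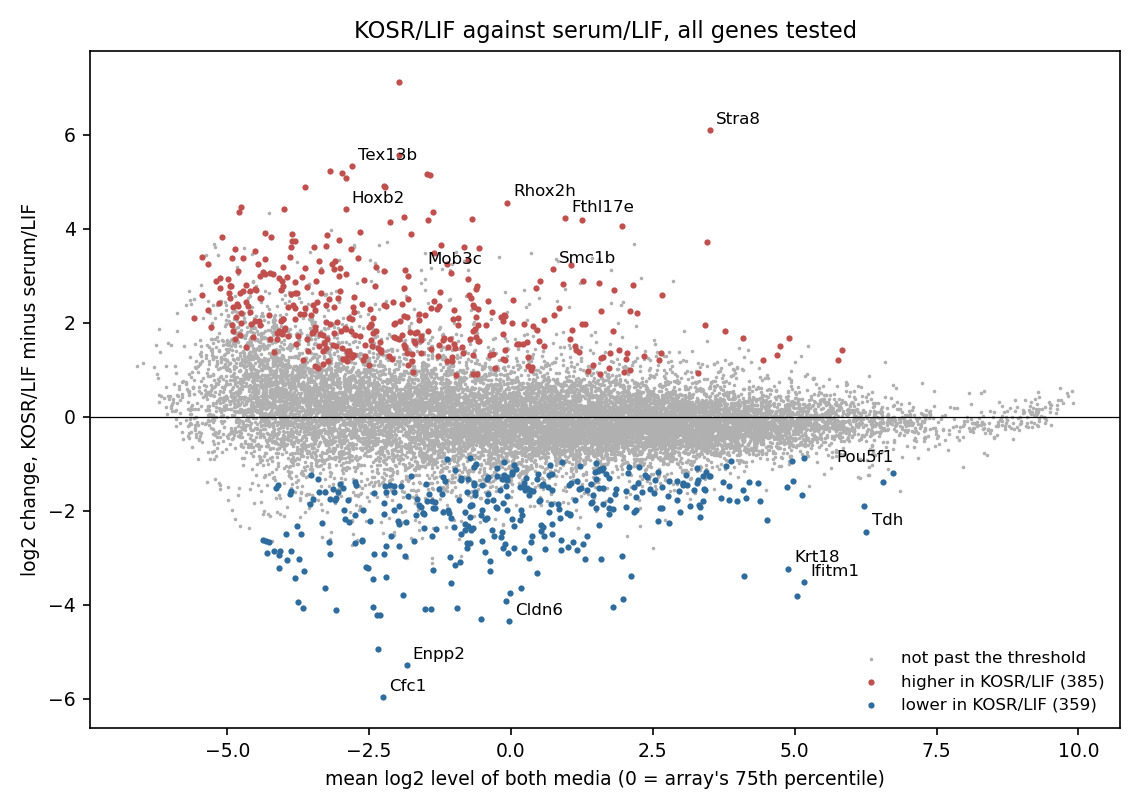
Log2 change (KOSR/LIF minus serum/LIF) against the mean log2 level of both media for all 16279 genes, with 385 higher genes in red and 359 lower genes in blue. Stra8, Tex13b and Rhox2h lie among the large rises, and Ifitm1, Krt18 and Tdh among the falls at high levels.

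Genes of meiosis rose together. Of 31 tested members of the meiosis and gametogenesis list 11 rose and none fell, with a median change of 1.11 against -0.03 over all genes tested. The count was the same without KOSR/LIF replicate 3 (median 1.26) and in the value table (median 1.03), and 9 of the 11 held in all 6 leave-one-out fits. Smc1b, a cohesin subunit that holds meiotic chromosomes together, stood at 2.67, 2.17 and 2.08 on the KOSR/LIF arrays against -0.77, -1.26 and -0.48 on the serum/LIF arrays, a gap far wider than the spread of either medium (3.14 ± 0.30, 8.84-fold, adjusted p = 0.00111). Slc25a31, the ADP/ATP carrier of sperm mitochondria, stood at -0.93, -1.53 and -2.14 in KOSR/LIF against -4.29, -4.87 and -5.21 in serum/LIF (3.26 ± 0.37, adjusted p = 0.0022). Tex12, part of the central element of the synaptonemal complex, stood at -1.59, -1.38 and -2.06 in KOSR/LIF against -5.75, -4.97 and -5.12 in serum/LIF (3.60 ± 0.56, adjusted p = 0.00681). All 3 genes held in every leave-one-out fit, and with dim signals lifted to the detection floor of their array (the lowest intensity among detected probes) the changes of Slc25a31 and Tex12, seen above background on 1 serum/LIF array, were 3.16 and 2.99. The synaptonemal complex genes Sycp3 and Sycp1 did not pass, while Hormad1, also of this list, rose and held in all 6 fits. Sycp3, the main protein of the chromosome axis, changed by 0.06 ± 0.47 and Sycp1, of the transverse filaments, by 0.55 ± 0.30. Stra8, the retinoic acid target that starts meiosis, reached 7.01, 6.75 and 5.90 on the KOSR/LIF arrays against -1.35, -0.46 and 3.19 on the serum/LIF arrays, so serum/LIF replicate 3 stood well above its group. Its change was 6.09 ± 1.19 (adjusted p = 0.0161), and the call was lost without any one of KOSR/LIF replicates 1 and 2 and serum/LIF replicates 1 and 2 (highest 0.0749, without serum/LIF replicate 1). The change was 5.19 without serum/LIF replicate 1 and 7.46 without serum/LIF replicate 3, and 4.04 in the value table.

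Promoters of the germ cell genes are a property that the comparison did not use, and those of the 6 risen genes described above and below, Smc1b, Slc25a31, Tex12, Fkbp6, Asz1 and Dazl, are shown. They are 3 that hold an E-box and 3 that do not. In RefSeq promoters (build GRCm38.p6, 250 bases before to 50 after the start), the E-box CACGTG, a palindrome that reads the same on both strands, was found in 8 of 16 promoters of the risen members of the meiosis and piRNA lists (50% of those with a promoter entry), in 16 of 42 promoters of all tested members of these lists (38.1%), and in 1223 of 12911 promoters of all genes tested (9.47%). Among all genes that rose it was in 31 of 315 promoters (9.84%), and among all that fell in 29 of 270 (10.7%). The risen germ cell genes had a median of 21.5 CpG dinucleotides in these 300 bases (from 5 to 29), against 19.5 for all tested members of the same lists, 9 for all genes that rose, 17 for all that fell and 18 for all genes tested. In the first 3 promoters below the capitals mark the E-box, and the other 3 have none.
Slc25a31, chr3:40708621-40708920, plus strand, E-box 93 bases before the start: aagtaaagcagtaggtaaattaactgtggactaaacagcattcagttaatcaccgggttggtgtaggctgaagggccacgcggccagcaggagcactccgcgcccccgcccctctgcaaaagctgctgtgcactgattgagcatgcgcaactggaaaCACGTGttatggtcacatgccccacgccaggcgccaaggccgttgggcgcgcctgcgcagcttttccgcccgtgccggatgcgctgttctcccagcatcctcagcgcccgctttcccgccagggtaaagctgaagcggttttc
Tex12, chr9:50561219-50561518, minus strand, E-box 93 bases before the start: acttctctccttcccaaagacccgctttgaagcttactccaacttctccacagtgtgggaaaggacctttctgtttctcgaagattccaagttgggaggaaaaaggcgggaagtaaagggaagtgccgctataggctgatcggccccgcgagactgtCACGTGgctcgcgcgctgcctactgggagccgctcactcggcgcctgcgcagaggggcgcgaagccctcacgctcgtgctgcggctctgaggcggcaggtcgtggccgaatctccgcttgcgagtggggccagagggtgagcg
Fkbp6, chr5:135349995-135350294, minus strand, 2 E-boxes, the first 101 bases before the start: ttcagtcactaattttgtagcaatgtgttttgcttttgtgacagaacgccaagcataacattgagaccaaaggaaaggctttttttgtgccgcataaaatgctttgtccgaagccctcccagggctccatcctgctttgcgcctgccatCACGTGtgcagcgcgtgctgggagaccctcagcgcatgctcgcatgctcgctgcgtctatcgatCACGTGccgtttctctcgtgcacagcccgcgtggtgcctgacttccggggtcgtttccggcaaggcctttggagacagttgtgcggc
Smc1b, chr15:85131908-85132207, minus strand, no E-box: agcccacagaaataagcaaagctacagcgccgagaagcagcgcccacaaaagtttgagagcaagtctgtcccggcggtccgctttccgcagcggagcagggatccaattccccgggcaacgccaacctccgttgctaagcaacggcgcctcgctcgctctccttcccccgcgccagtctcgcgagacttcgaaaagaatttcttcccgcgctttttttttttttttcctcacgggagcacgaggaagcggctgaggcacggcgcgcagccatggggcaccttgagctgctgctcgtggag
Asz1, chr6:18109012-18109311, minus strand, no E-box: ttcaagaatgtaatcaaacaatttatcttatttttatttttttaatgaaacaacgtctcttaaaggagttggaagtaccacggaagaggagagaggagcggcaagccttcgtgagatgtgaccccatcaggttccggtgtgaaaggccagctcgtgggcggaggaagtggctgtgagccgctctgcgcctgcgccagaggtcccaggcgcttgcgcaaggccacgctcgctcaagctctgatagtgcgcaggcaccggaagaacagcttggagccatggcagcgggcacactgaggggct
Dazl, chr17:50293571-50293870, minus strand, no E-box: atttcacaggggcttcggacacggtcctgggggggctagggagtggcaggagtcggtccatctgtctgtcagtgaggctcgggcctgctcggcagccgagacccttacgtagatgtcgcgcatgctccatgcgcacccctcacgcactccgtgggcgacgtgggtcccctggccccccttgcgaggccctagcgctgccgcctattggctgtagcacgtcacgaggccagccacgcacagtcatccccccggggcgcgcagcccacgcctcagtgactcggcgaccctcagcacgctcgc
Such a match is a string of letters and not a measured binding site.

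Genes of the piRNA pathway, which silences transposons in germ cells, rose beside them. Of 17 tested members of the list of piRNA and germ cell RNA-binding genes, 7 rose and 1 fell (median 1.29). Without KOSR/LIF replicate 3 the counts were 8 and 1 (median 1.35), and in the value table they were 5 and 1 (median 0.77). Asz1, a mitochondrial membrane scaffold for piRNA processing, was not well above background on any serum/LIF array and was at least 3.82-fold higher in KOSR/LIF (adjusted p = 0.00818), with log2 levels of -2.31, -3.01 and -4.21 on KOSR/LIF against -6.37, -6.59 and -8.03 on serum/LIF. Fkbp6, a co-chaperone for loading piRNAs, stood at 1.84, 1.56 and -0.67 in KOSR/LIF and -2.92, -2.03 and -2.33 in serum/LIF (3.34 ± 0.74, adjusted p = 0.0278). Dazl, the RNA-binding translation factor of germ cells, stood at 1.67, 1.33 and 0.66 in KOSR/LIF and -2.83, -2.85 and -1.40 in serum/LIF (3.58 ± 0.71, adjusted p = 0.017). In each of these the groups did not overlap and KOSR/LIF replicate 3 was the lowest of its medium. Asz1 held in all 6 leave-one-out fits, whereas the highest adjusted p was 0.11 for Fkbp6 without serum/LIF replicate 1 and 0.0775 for Dazl without serum/LIF replicate 1, and Asz1 did not pass with cell line as a block (adjusted p = 0.0562). The change of Fkbp6 was 4.13 without KOSR/LIF replicate 3. Tdrd12, a Tudor domain helicase of the same pathway, went the other way, with -0.55, -0.97 and -2.06 in KOSR/LIF against 1.77, 1.00 and 2.19 in serum/LIF (-2.85 ± 0.46, adjusted p = 0.00771), and held in all 6 fits. Ddx4, the germ cell helicase vasa, and Nanos3, a factor of primordial germ cells, did not pass (0.42 ± 0.33 and 0.68 ± 0.42). The 4 germ cell markers had a summed level of 3.84, 3.43 and 3.96 on the KOSR/LIF arrays and 3.50, 2.83 and 2.93 on the serum/LIF arrays (log2 of the summed linear levels), and all 4 were well above background on every array of both media. In bulk RNA, more cells with these transcripts and more transcript per cell cannot be told apart, here and in every group below.

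Multicopy genes of the X chromosome were among the largest rises. These families are near-identical copies, mostly silent outside germ cells and placenta, and a probe named for one copy may read its relatives, so the copy is uncertain in each case. By symbol, which was a choice made after the values were seen, 4 of 7 tested Xlr genes, 6 of 17 Rhox genes, 3 of 4 Fthl17 genes and 4 of 15 Mage genes rose, and 1 Mage gene fell, the imprinted Magel2, which lies on chromosome 7. Over the whole X chromosome 47 of 621 tested genes rose (7.57%) and 32 fell, whereas on the autosomes between 1.34% and 2.94% of tested genes rose. The X chromosome held 3.81% of the genes tested, 12.2% of those that rose (12.4% without KOSR/LIF replicate 3) and 8.91% of those that fell. Rhox2h, a homeobox gene of the reproductive cluster, stood at 2.67, 2.44 and 1.53 in KOSR/LIF against -2.72, -2.56 and -1.75 in serum/LIF (4.56 ± 0.65, adjusted p = 0.00489), and Rhox2c at 2.26, 2.00 and -0.96 in KOSR/LIF against -4.80, -4.13 and -3.27 in serum/LIF (5.16 ± 0.88, adjusted p = 0.00914). Tex13b, a testis gene, stood at 0.32, 0.56 and -1.26 in KOSR/LIF against -6.17, -4.88 and -5.35 in serum/LIF (5.34 ± 0.52, adjusted p = 0.00111, 4.61 with dim signals lifted). These 3 held in all 6 leave-one-out fits, as did Ctag2l2, a cancer/testis antigen relative (5.07 ± 0.86, adjusted p = 0.00914, 3.74 with dim signals lifted), and Magea8, a melanoma antigen gene that was at least 6-fold higher (adjusted p = 0.00747). Fthl17e, a ferritin-like germ cell gene, stood at 4.22, 3.13 and 1.83 in KOSR/LIF against -1.46, -1.61 and -0.41 in serum/LIF (4.22 ± 0.77, adjusted p = 0.0121, and 0.0559 without serum/LIF replicate 1). Its pseudogene probe Fthl17-ps1 read 4.06 ± 0.79 (adjusted p = 0.0159, and 0.071 without serum/LIF replicate 1). The lymphocyte-regulated Xlr genes Xlr5b (5.58 ± 1.06), Xlr4a (4.91 ± 1.20), Xlr5c (4.89 ± 1.22) and Xlr4b (4.36 ± 0.98) also passed, with 1 serum/LIF array each well above background, and their highest leave-one-out p-values were 0.0599 for Xlr5b without serum/LIF replicate 1, 0.16 for Xlr4a without serum/LIF replicate 1, 0.16 for Xlr5c without serum/LIF replicate 2 and 0.12 for Xlr4b without serum/LIF replicate 1. With dim signals lifted the 4 changes were 4.95, 3.75, 4.22 and 4.21. Single arrays moved several of these changes. That of Rhox2c was 6.19 without KOSR/LIF replicate 3, that of Fthl17e 4.83 without KOSR/LIF replicate 3, that of Fthl17-ps1 4.72 without KOSR/LIF replicate 3, and that of Ctag2l2 6.06 without serum/LIF replicate 3. Among the Xlr genes, Xlr5b had 4.96 without KOSR/LIF replicate 1 and 6.18 without serum/LIF replicate 3, and Xlr4b had 4.95 without KOSR/LIF replicate 3 and 5.39 without serum/LIF replicate 3. Xlr4a had 5.70 without KOSR/LIF replicate 3, 4.13 without serum/LIF replicate 1, 4.21 without serum/LIF replicate 2 and 6.38 without serum/LIF replicate 3. Xlr5c had 4.12 without KOSR/LIF replicate 1, 5.75 without KOSR/LIF replicate 3, 3.95 without serum/LIF replicate 2 and 5.66 without serum/LIF replicate 3. Outside the X chromosome, Nlrp4c, an oocyte and early embryo gene of the NLR family on chromosome 7, rose by 4.25 ± 0.71 (adjusted p = 0.00833) and held in all 6 fits.

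**Figure D3:**
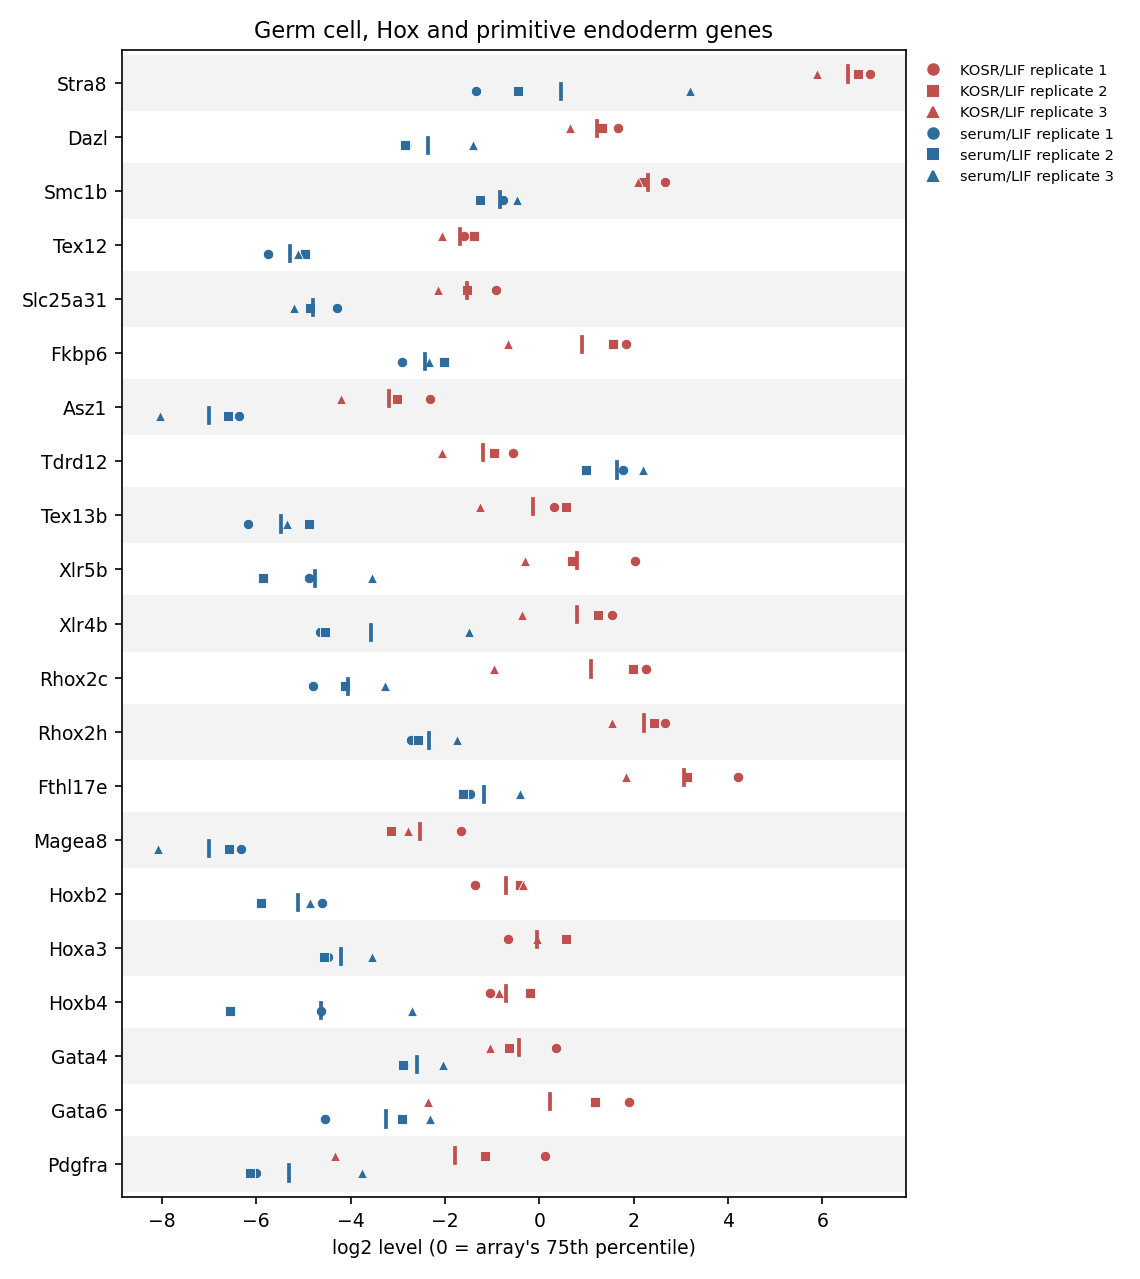
Log2 level on each array (markers) with the mean of each medium (bars) for germ cell, Hox and primitive endoderm genes, KOSR/LIF in red above serum/LIF in blue. KOSR/LIF lies above serum/LIF without overlap in every gene drawn except Tdrd12, which lies below, and Gata6 and Pdgfra, where KOSR/LIF replicate 3 falls among the serum/LIF arrays.

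Hox genes, which pattern the body axis and are held silent in ES cells by Polycomb, rose in 11 of 28 tested members with none lower, and the median change was 1.64. The count was 5 without KOSR/LIF replicate 3 (median 1.05) and, in the value table, it was 7 (median 0.81), so the size of this group depended on the array set. The members that rose were Hoxa2 to Hoxa4, Hoxb2 to Hoxb6, Hoxb8, Hoxb13 and Hoxc4, which apart from Hoxb8 and Hoxb13 sit at the anterior end or the middle of their clusters. Hoxb2 stood at -1.36, -0.41 and -0.34 in KOSR/LIF against -4.61, -5.90 and -4.86 in serum/LIF (4.42 ± 0.60, adjusted p = 0.00438), and held in all 6 fits with Hoxa2 and Hoxb5. Hoxa3 stood at -0.67, 0.57 and -0.05 in KOSR/LIF against -4.48, -4.57 and -3.54 in serum/LIF (4.15 ± 0.91, adjusted p = 0.0266). Hoxb4 stood at -1.04, -0.20 and -0.86 in KOSR/LIF against -4.64, -6.55 and -2.69 in serum/LIF (3.93 ± 0.98, adjusted p = 0.0445). The KOSR/LIF arrays lay close together in all 3, and each was well above background on 1 serum/LIF array, so that with dim signals lifted the changes were 3.88, 4.06 and 3.16. The highest leave-one-out p-values were 0.099 for Hoxa3 without serum/LIF replicate 1 and 0.15 for Hoxb4 without serum/LIF replicate 2, and without KOSR/LIF replicate 3 they were 0.0658 for Hoxa3 and 0.095 for Hoxb4. With cell line as a block Hoxb4 did not pass (adjusted p = 0.0865), and its change was 2.97 without serum/LIF replicate 2 and 4.90 without serum/LIF replicate 3. Of 33 tested Polycomb genes, 1 rose and none fell (median -0.08). It was Bmi1, the PRC1 subunit PCGF4, at 0.70, 0.92 and 1.59 in KOSR/LIF against -0.27, -0.70 and -0.56 in serum/LIF (1.58 ± 0.29, adjusted p = 0.0124, 0.0529 without serum/LIF replicate 2 and 0.0522 with cell line as a block).

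Retinoic acid, made from vitamin A, is the classic inducer of both Hox genes and Stra8. Of 23 tested genes of its metabolism and response 3 rose and none fell (median 0.70, 0.83 without KOSR/LIF replicate 3). Besides Stra8 these were Stra6, the cell surface receptor that takes up retinol, and Dhrs3, which turns retinal back into retinol and is itself induced by retinoic acid. Stra6 stood at -1.48, -1.47 and -0.49 in KOSR/LIF against -5.79, -4.95 and -4.00 in serum/LIF (3.77 ± 0.55, adjusted p = 0.00532, 3.14 with dim signals lifted). Dhrs3 stood at 1.92, 2.66 and 2.14 in KOSR/LIF against 0.50, -0.13 and 0.42 in serum/LIF (1.97 ± 0.30, adjusted p = 0.00592). Both held in all 6 leave-one-out fits, and Dhrs3 did not pass with cell line as a block (adjusted p = 0.0562). The direct target Rarb, a retinoic acid receptor, passed in the value table (2.51, adjusted p = 0.0422) but not on the scanner files with all arrays (3.27 ± 0.97, adjusted p = 0.0837) or without KOSR/LIF replicate 3 (adjusted p = 0.20), while Cyp26a1, the enzyme that degrades retinoic acid, stood at 0.53 ± 0.33 and did not pass. The synthesis genes Aldh1a2 (-1.01 ± 0.36), Aldh1a3 (-1.38 ± 0.80) and Rdh10 (-1.39 ± 0.45) did not pass either. Cyp26a1, Rarb and the synthesis genes were chosen for mention after their values were seen.

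Primitive endoderm genes read lower on the faint array than on the other KOSR/LIF arrays. Of 20 tested members 2 rose with all arrays (median 0.67), 5 without KOSR/LIF replicate 3 (median 1.34) and, in the value table, 5 (median 0.96), and none fell in any of these. The median difference from the serum/LIF mean was 1.48 on KOSR/LIF replicate 1, 1.03 on replicate 2 and -0.50 on replicate 3. Gata6, Pdgfra and Sox17 were each well above background on 2 of the 3 KOSR/LIF arrays. The lowest value of each was on replicate 3, so these replicate 3 values are dim signals near background. Gata6, the transcription factor that specifies the lineage, stood at 1.90, 1.17 and -2.36 on the KOSR/LIF arrays against -4.54, -2.91 and -2.31 on the serum/LIF arrays, so replicate 3 fell among the serum/LIF values. Its change was 3.49 ± 1.09 with all arrays (adjusted p = 0.10), 4.79 without replicate 3 (adjusted p = 0.0224) and 3.45 in the value table (adjusted p = 0.0189). There the log2 intensities were 9.42, 10.15 and 7.93 in KOSR/LIF against 4.73, 5.98 and 6.43 in serum/LIF, so the table's own replicate 3 column lay above all serum/LIF columns. Pdgfra, the PDGF receptor that marks the lineage, followed the same course, with 0.13, -1.15 and -4.34 in KOSR/LIF against -6.01, -6.13 and -3.77 in serum/LIF on the scanner files (3.51 ± 0.95, adjusted p = 0.0596), 4.79 without replicate 3 (adjusted p = 0.00738) and 2.77 on the table (adjusted p = 0.0069). Sox17, an endoderm transcription factor, stood at -0.98, -2.21 and -3.36 in KOSR/LIF against -4.71, -3.93 and -3.20 in serum/LIF (1.76 ± 0.53, adjusted p = 0.0874), and passed without replicate 3 (2.35, adjusted p = 0.0224) and on the table (1.48, adjusted p = 0.0424). Gata4, the partner of Gata6, passed in all 3 versions, with 0.35, -0.63 and -1.04 in KOSR/LIF against -2.88, -2.88 and -2.03 in serum/LIF (2.16 ± 0.38, adjusted p = 0.0101, and 0.0534 without serum/LIF replicate 1). The basement membrane genes that mature primitive endoderm makes in bulk did not pass, with -0.22 ± 0.58 for the laminin gene Lama1 and 0.43 ± 0.78 for the collagen gene Col4a1. The 6 primitive endoderm markers had a summed level of 3.10, 2.11 and 0.08 on the KOSR/LIF arrays and -1.07, -0.66 and 0.26 on the serum/LIF arrays. Of the 6, 1 was well above background on all KOSR/LIF arrays and 2 on all serum/LIF arrays. With dim signals lifted, the changes of Gata6, Pdgfra and Sox17 were 3.38, 3.04 and 1.88 with all arrays. Without replicate 3 they were 4.68, 3.70 and 2.19.

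Epithelial genes fell together, with the highest count of falls of any list. Of 34 tested members of the junction and adhesion list 13 fell and none rose, with a median of -1.10. Without KOSR/LIF replicate 3 the count was 11 (median -1.06) and in the value table it was 14 (median -0.92), and 7 of the 13 held in all 6 leave-one-out fits. The claudins Cldn3, Cldn4, Cldn6, Cldn7 and Cldn9, strands of the tight junction, were all among them, with changes of -1.98, -3.28, -4.34, -2.96 and -1.64. By symbol, these were the only 5 of 17 tested claudin genes to fall. None rose past the threshold, and the median of the 17 was -0.14, with changes from -4.34 to 2.64. Cldn6 stood at -0.95, -1.41 and -4.24 in KOSR/LIF against 2.26, 2.17 and 1.99 in serum/LIF (-4.34 ± 0.87, adjusted p = 0.0184, and 0.0749 without serum/LIF replicate 1), with replicate 3 the lowest. Its change was -4.97 without KOSR/LIF replicate 1 and -3.32 without KOSR/LIF replicate 3, and -3.07 in the value table, and that of Rab25 was -3.43 without KOSR/LIF replicate 3. Ap1m2, the clathrin adaptor that sorts proteins to the basolateral side, stood at -1.70, -2.49 and -3.84 in KOSR/LIF against 1.90, 1.71 and 1.29 in serum/LIF (-4.31 ± 0.75, adjusted p = 0.0102). Rab25, a GTPase of epithelial recycling endosomes, stood at -1.95, -2.75 and -4.29 in KOSR/LIF against 1.47, 1.20 and 0.58 in serum/LIF (-4.08 ± 0.57, adjusted p = 0.00474, -3.48 with dim signals lifted). Cdh1, E-cadherin, fell less in size and with a small spread, standing at 2.56, 2.69 and 2.20 in KOSR/LIF against 4.39, 4.25 and 4.18 in serum/LIF (-1.79 ± 0.26, adjusted p = 0.00532). Ap1m2, Rab25 and Cdh1 held in all 6 fits. Epcam, the epithelial adhesion molecule of ES cells, fell by 1.56 ± 0.36 (adjusted p = 0.0326) but lost the call in 5 of 6 fits (highest 0.12, without serum/LIF replicate 1, and 0.0893 without KOSR/LIF replicate 3) and with cell line as a block (0.0718). The zonula occludens gene Tjp1 (-0.20 ± 0.30) and N-cadherin, Cdh2 (-0.73 ± 0.53), did not pass. Both and the claudin values other than Cldn6 were chosen for mention after their values were seen.

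Other epithelial genes outside that list were among the largest falls. Mal2, a raft protein of transcytosis, stood at -3.89, -5.00 and -4.48 in KOSR/LIF against -0.14, -0.66 and -0.41 in serum/LIF (-4.05 ± 0.50, adjusted p = 0.00392, -3.31 with dim signals lifted). Galnt3, an enzyme that starts mucin-type glycans, stood at -3.03, -3.04 and -4.25 in KOSR/LIF against 0.57, 0.48 and 0.88 in serum/LIF (-4.09 ± 0.58, adjusted p = 0.00488, -3.50 with dim signals lifted). Tmprss13, a membrane serine protease, was not well above background on any KOSR/LIF array and fell at least 12.4-fold (adjusted p = 0.00811). Those 3 held in all 6 leave-one-out fits. Crb3, of the Crumbs polarity complex, fell by 4.21 ± 0.91 (adjusted p = 0.0251, -3.08 with dim signals lifted) and lost the call without KOSR/LIF replicate 3 (adjusted p = 0.0614) and in 4 other fits (highest 0.0891, without serum/LIF replicate 1). Its change was -3.46 without KOSR/LIF replicate 1 and -4.95 without KOSR/LIF replicate 2. By symbol, 5 of 32 tested keratin genes fell and 1 rose, with a median change of 0.27. Of the keratins, Krt18, of simple epithelia, stood at 3.62, 4.09 and 2.08 in KOSR/LIF against 7.11, 5.93 and 6.45 in serum/LIF (-3.23 ± 0.57, adjusted p = 0.0106, and 0.0541 without serum/LIF replicate 1), and its partner Krt8 at 1.28, 1.39 and -2.54 in KOSR/LIF against 4.41, 3.16 and 4.18 in serum/LIF (-3.87 ± 0.92, adjusted p = 0.0367, and 0.13 without serum/LIF replicate 1). For both, KOSR/LIF replicate 3 was well below the other KOSR/LIF arrays, and the change was -2.64 without KOSR/LIF replicate 3 for Krt18, and -4.49 without KOSR/LIF replicate 1, -4.55 without KOSR/LIF replicate 2 and -2.58 without KOSR/LIF replicate 3 for Krt8. The cell line block gave an adjusted p of 0.0665 for Krt18 and 0.12 for Krt8. Krt23, an acidic keratin of other epithelia, rose instead, with 0.42, -0.44 and -1.17 in KOSR/LIF against -6.39, -6.66 and -3.67 in serum/LIF (5.18 ± 0.71, adjusted p = 0.00438, 3.78 with dim signals lifted and 6.13 without serum/LIF replicate 3), and held in all 6 fits. The trophoblast list, which holds Krt8 and Krt18, had 20 members tested, 2 lower and none higher, and Cdx2, the trophoblast master regulator, did not pass (-2.19 ± 1.20).

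**Figure D4:**
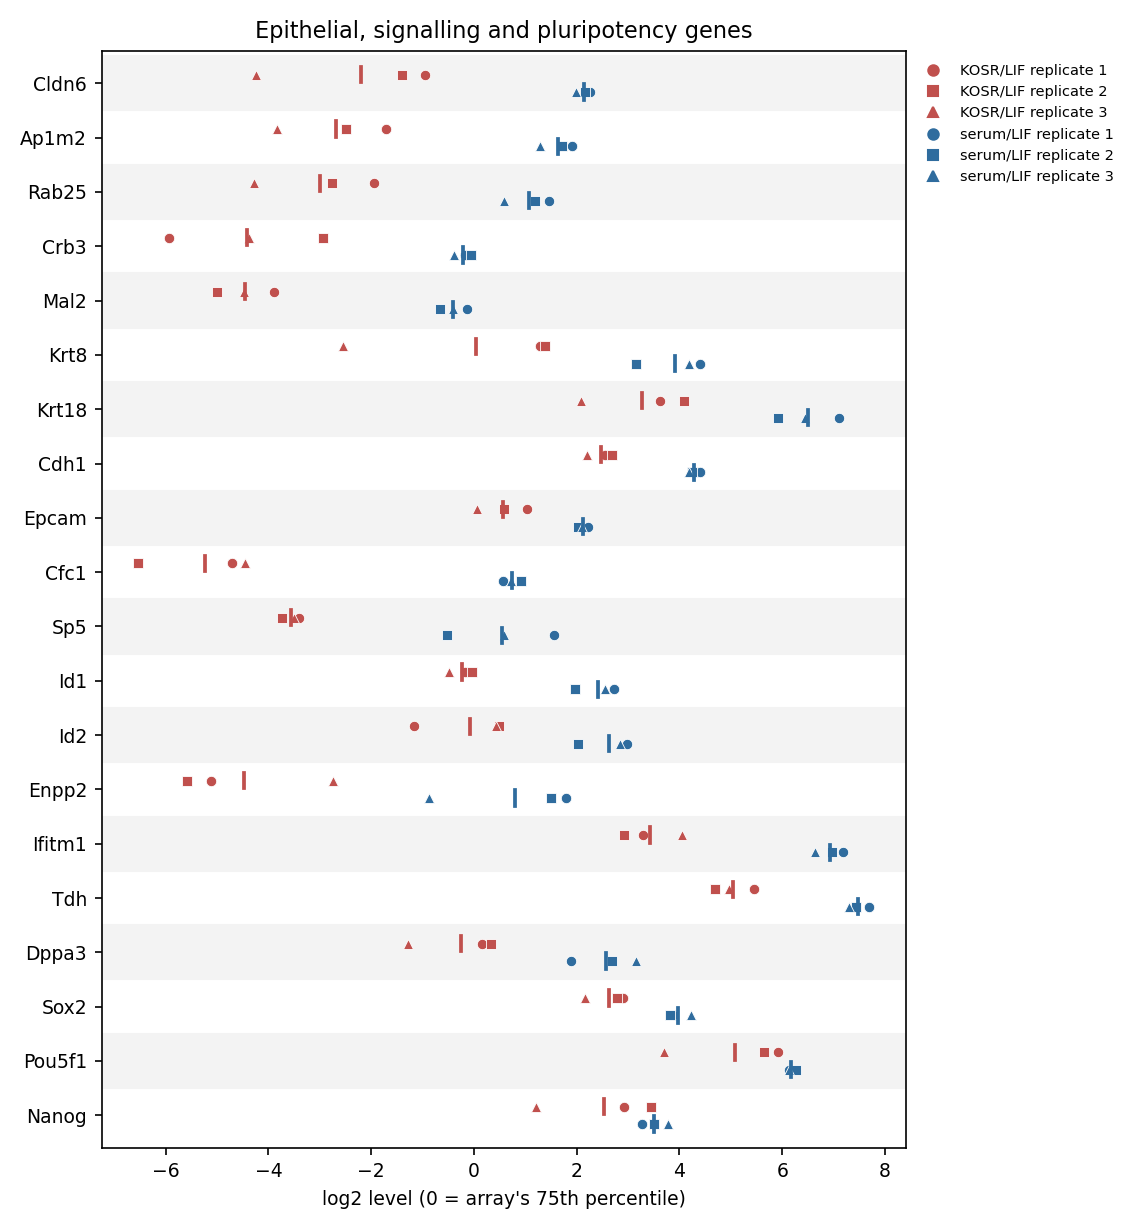
Log2 level on each array (markers) with the mean of each medium (bars) for epithelial, signalling and pluripotency genes, KOSR/LIF in red above serum/LIF in blue. KOSR/LIF lies below serum/LIF without overlap in every gene drawn except Nanog. KOSR/LIF replicate 3 is the lowest of its group in Cldn6, Ap1m2, Rab25, Krt8, Krt18, Cdh1, Epcam, Id1, Dppa3, Sox2, Pou5f1 and Nanog.

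Pluripotency genes moved unevenly. Of 20 tested naive pluripotency genes 5 fell and none rose (median -0.80), with 5 lower without KOSR/LIF replicate 3 (median -0.51) and, in the value table, 5 (median -0.43). Pou5f1, the central pluripotency factor, stood at 5.92, 5.66 and 3.69 in KOSR/LIF against 6.14, 6.26 and 6.14 in serum/LIF, so its change of -1.09 ± 0.46 came with 1 far lower array, and did not pass with all arrays, without replicate 3 (-0.39, adjusted p = 0.43) or on the table (-0.33, adjusted p = 0.25). On the table the log2 intensities were 13.93, 14.08 and 13.94 in KOSR/LIF against 14.17, 14.34 and 14.44 in serum/LIF. Sox2, its DNA-binding partner, stood at 2.90, 2.79 and 2.17 in KOSR/LIF against 3.88, 3.82 and 4.22 in serum/LIF (-1.35 ± 0.25, adjusted p = 0.0132). Tfcp2l1, a naive state factor downstream of LIF, stood at 2.43, 2.59 and 1.97 in KOSR/LIF against 3.47, 3.69 and 4.11 in serum/LIF (-1.42 ± 0.28, adjusted p = 0.0164). Dppa3, a maternal factor that protects methylation marks, stood at 0.17, 0.34 and -1.28 in KOSR/LIF against 1.90, 2.69 and 3.15 in serum/LIF (-2.84 ± 0.54, adjusted p = 0.0145). In these 3 the groups did not overlap with all arrays. Even so, the highest leave-one-out p-values were 0.0543 for Sox2, 0.0654 for Tfcp2l1 and 0.0579 for Dppa3, each without serum/LIF replicate 3. Each of the 3 also lost the call in 1 further fit, without serum/LIF replicate 1 for Sox2 and without serum/LIF replicate 2 for the others. Tdh, the threonine dehydrogenase on which mouse ES cells depend, fell at high levels, to 5.46, 4.69 and 4.96 in KOSR/LIF against 7.69, 7.44 and 7.30 in serum/LIF (-2.44 ± 0.38, adjusted p = 0.00636), and held in all 6 fits. Nr0b1, an orphan nuclear receptor, and Tcl1, an Akt coactivator, also fell (-1.93 ± 0.45 for Nr0b1 and -1.76 ± 0.35 for Tcl1), with highest leave-one-out p-values of 0.12 for Nr0b1 without serum/LIF replicate 3 and 0.0717 for Tcl1 without serum/LIF replicate 1. The cell line block gave 0.0722 for Sox2, 0.0631 for Tfcp2l1, 0.0562 for Nr0b1 and 0.0818 for Tcl1. On the value table Sox2 did not pass (-0.76, adjusted p = 0.12). A separate list of general pluripotency genes, which holds Tdh, Cdh1 and Epcam, had 4 of 17 tested members lower and none higher (median -0.70).

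Several other naive factors did not pass. The changes were -0.99 ± 0.46 for Nanog, -0.81 ± 0.26 for Esrrb, -1.08 ± 0.29 for Zfp42, -0.02 ± 0.39 for Klf4 and -0.24 ± 0.29 for Prdm14. Nanog had 2 probes with changes of opposite sign, -0.99 for the brighter one used here and 3.31 ± 1.93 for the other. The second probe did not pass either (limma, adjusted p = 0.40). Genes of the formative and primed epiblast fell in 3 of 19 tested members. Enpp2, autotaxin, which makes lysophosphatidic acid, was not well above background on any KOSR/LIF array and fell at least 25.8-fold (adjusted p = 0.0127, and 0.0631 without serum/LIF replicate 1), with -5.12, -5.58 and -2.75 in KOSR/LIF against 1.78, 1.50 and -0.87 in serum/LIF. The bound was 41.7-fold without KOSR/LIF replicate 3. Pou3f1, a neural-primed POU factor, and Foxd3, which opens epiblast enhancers, fell by 1.69 ± 0.36 and 1.78 ± 0.40, with highest leave-one-out p-values of 0.0858 for Pou3f1 without serum/LIF replicate 1 and 0.11 for Foxd3 without serum/LIF replicate 2 and, with cell line as a block, 0.0682 for Pou3f1 and 0.10 for Foxd3. Neither passed in the value table (adjusted p = 0.13 for Pou3f1 and 0.0643 for Foxd3), and Foxd3 did not pass without KOSR/LIF replicate 3 (0.0614). Fgf5, the marker of post-implantation epiblast, stood at -2.93, -3.33 and -0.37 in KOSR/LIF against 0.82, 0.07 and 0.27 in serum/LIF, and KOSR/LIF replicate 3 alone was near the serum/LIF level. It passed without that array (-3.52, adjusted p = 0.0316) and not with it (-2.60 ± 0.84, adjusted p = 0.11) or on the table (-2.22, adjusted p = 0.19). Dnmt3b (-1.21 ± 0.54), a de novo DNA methyltransferase, Otx2 (-0.19 ± 0.66), an epiblast factor, Hhex (0.22 ± 0.48), an endoderm homeobox gene, and T (-2.60 ± 1.18), the mesoderm factor brachyury, did not pass. Of 20 DNA methylation and demethylation genes none passed with all arrays, without KOSR/LIF replicate 3 or on the table, and the median change was -0.08. With all arrays limma gave 0 higher and 1 lower of these at an unadjusted p under 0.05.

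Some components and targets of several signalling pathways fell. In the Nodal and TGF-beta list 3 of 18 fell and 1 rose, with a median of -0.18 and 7 of the 18 changes above 0. Cfc1, the co-receptor Cryptic for Nodal, was not well above background on any KOSR/LIF array and was at least 24.6-fold lower, or 39.7-fold without KOSR/LIF replicate 3 (adjusted p = 0.00438), with -4.71, -6.54 and -4.45 in KOSR/LIF against 0.57, 0.91 and 0.72 in serum/LIF. Fst, follistatin, a secreted inhibitor of activin, stood at -1.84, -1.56 and -1.60 in KOSR/LIF against 0.61, 0.12 and -0.04 in serum/LIF (-1.90 ± 0.31, adjusted p = 0.00747). Both held in all 6 leave-one-out fits, but Fst did not pass in the value table (-1.02, adjusted p = 0.28). Inhba, an activin subunit, fell at least 2.42-fold (adjusted p = 0.0367, and 0.15 without serum/LIF replicate 1, 0.0522 with cell line as a block). Of 18 Wnt components and targets 2 fell, with a median of -0.36 and 8 of the 18 changes above 0. Sp5, a direct beta-catenin target, stood at -3.41, -3.74 and -3.51 in KOSR/LIF against 1.56, -0.52 and 0.59 in serum/LIF (-4.10 ± 0.83, adjusted p = 0.0193, and 0.089 without serum/LIF replicate 1), and the ligand gene Wnt4 at -1.63, -2.83 and -1.74 in KOSR/LIF against 1.57, -0.32 and 0.58 in serum/LIF (-2.68 ± 0.45, adjusted p = 0.00833, holding in all 6 fits). Axin2, the usual readout of the pathway, changed by -0.92 ± 0.71 and did not pass.

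Of 16 tested BMP components and targets 2 fell and none rose, with a median of -0.75 and 5 of the 16 changes above 0. Without KOSR/LIF replicate 3, 1 rose and 1 fell (median -0.54). The value table gave 1 higher and 2 lower (median -0.51). Bmper rose in both, by 3.40 (adjusted p = 0.0375) and 2.46 (adjusted p = 0.0292), and did not pass with all arrays (2.56 ± 0.82). The 2 that fell with all arrays were Id1 and Id2, immediate targets of BMP in ES cells. Id1 stood at -0.17, -0.04 and -0.49 in KOSR/LIF against 2.73, 1.97 and 2.56 in serum/LIF (-2.66 ± 0.58, adjusted p = 0.0261), and Id2 at -1.16, 0.48 and 0.43 in KOSR/LIF against 2.99, 2.03 and 2.84 in serum/LIF (-2.70 ± 0.52, adjusted p = 0.0156). The gaps were wide, but the highest leave-one-out p-values were 0.10 for Id1 without serum/LIF replicate 1 and 0.0749 for Id2 without serum/LIF replicate 1, Id1 did not pass without KOSR/LIF replicate 3 (0.0726), and Id2 did not pass with cell line as a block (0.0603). Id3 and Id4 changed by -2.38 ± 0.70 and -1.75 ± 0.55 and did not pass. ERK-dependent immediate early and feedback genes fell in 4 of 21 (median -1.26, -0.53 in the value table). Spry1, a feedback inhibitor of receptor tyrosine kinases, stood at 0.96, 1.07 and 0.58 in KOSR/LIF against 2.77, 2.53 and 2.60 in serum/LIF (-1.76 ± 0.38, adjusted p = 0.0253), Junb, an AP-1 subunit that LIF also induces, fell (-1.60 ± 0.41, adjusted p = 0.048), and Egr2, an early growth response factor, fell at least 1.42-fold (adjusted p = 0.0391). All 3 lost the call in leave-one-out fits (highest 0.10 for Spry1 without serum/LIF replicate 1, 0.17 for Junb without serum/LIF replicate 1 and 0.16 for Egr2 without serum/LIF replicate 1), with 0.0685 for Spry1 without KOSR/LIF replicate 3, and Junb did so with cell line as a block (0.0523) and in the value table (0.19). Targets of SRF and YAP, which respond to actin tension, fell in 3 of 24 (median -0.81). Thbs1, the matrix protein thrombospondin 1, stood at -2.02, -1.47 and -2.62 in KOSR/LIF against 2.45, 0.64 and 2.56 in serum/LIF (-3.92 ± 0.65, adjusted p = 0.00848, a change of -4.54 without serum/LIF replicate 2 and -2.78 in the value table) and held in all 6 fits. Ccn2, the connective tissue growth factor, fell by 1.88 ± 0.43 (adjusted p = 0.0299) and Axl, a receptor kinase, by 1.80 ± 0.44 (adjusted p = 0.0403), with highest leave-one-out p-values of 0.11 for Ccn2 without serum/LIF replicate 1 and 0.16 for Axl without serum/LIF replicate 1. Both lost the call without KOSR/LIF replicate 3 (0.0782 for Ccn2 and 0.11 for Axl), Ccn2 in the value table (0.0539) and Axl with cell line as a block (0.0966). In the LIF and STAT3 list Junb alone of 15 tested members passed, and Socs3, the feedback inhibitor of LIF signalling, changed by -0.79 ± 0.47. The 13 FGF ligand and receptor genes gave no call with all arrays (limma, with 1 higher and 4 lower at an unadjusted p under 0.05).

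Genes of interferon response and antigen presentation fell in 4 of 19, led by Ifitm1, an interferon-induced membrane protein that ES cells express. Ifitm1 stood at 3.28, 2.92 and 4.05 in KOSR/LIF against 7.18, 6.97 and 6.64 in serum/LIF (-3.51 ± 0.37, adjusted p = 0.0016), and held in all 6 leave-one-out fits. The immunoproteasome subunit gene Psmb8 (-2.14 ± 0.50) and the peptide transporter gene Tap2 (-1.99 ± 0.45) fell too, with highest leave-one-out p-values of 0.14 for Psmb8 without serum/LIF replicate 1 and 0.11 for Tap2 without serum/LIF replicate 3. Neither passed without KOSR/LIF replicate 3 (0.10 for Psmb8 and 0.0799 for Tap2) or with cell line as a block (0.0935 for Psmb8 and 0.0883 for Tap2), and Psmb8 did not pass in the value table (0.26). Insulin and IGF genes fell in 2 of 18. Irs1, the insulin receptor substrate, stood at -2.67, -1.69 and -1.48 in KOSR/LIF against 0.68, -0.14 and 0.45 in serum/LIF (-2.27 ± 0.46, adjusted p = 0.0184, and 0.0858 without serum/LIF replicate 1). Igfbp3, which binds IGFs outside the cell, fell by 2.88 ± 0.66 (adjusted p = 0.0322, 0.11 without serum/LIF replicate 1 and 0.12 with cell line as a block), and its change was -3.54 without KOSR/LIF replicate 2 and -1.92 without KOSR/LIF replicate 3. The imprinted gene Magel2 was the only 1 of 31 imprinted genes tested to pass, at -2.06, -2.51 and -1.98 in KOSR/LIF against 0.31, -0.03 and 0.23 in serum/LIF (-2.35 ± 0.30, adjusted p = 0.00392), and held in all 6 fits. Map2, a neuronal microtubule protein, was the only 1 of 19 neural genes to pass (-2.67 ± 0.39, adjusted p = 0.00532, -1.88 with dim signals lifted). It held in all 6 fits and did not pass in the value table (-1.48, adjusted p = 0.12).

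Few metabolic genes passed. Cholesterol synthesis genes rose in 2 of 26 with none lower, but 25 of the 26 changes were above 0 and the median was 0.59 (0.77 without KOSR/LIF replicate 3, 0.59 in the value table), against 7764 of 16279 above 0 over all genes tested. Msmo1, a sterol methyl oxidase, stood at 4.88, 5.49 and 4.79 in KOSR/LIF against 3.59, 4.08 and 3.86 in serum/LIF (1.21 ± 0.24, adjusted p = 0.0184, and 0.0957 without serum/LIF replicate 1). Insig1, the sterol-sensing brake on the pathway, rose by 1.35 ± 0.30 (adjusted p = 0.0271, and 0.12 without serum/LIF replicate 1) and did not pass in the value table (0.11). With cell line as a block neither passed (0.0796 for Msmo1 and 0.071 for Insig1). Of 23 tested NRF2, glutathione and selenoprotein genes 2 rose and 1, Gstm1, fell (median 0.15). The 2 that rose were selenoprotein genes. Gpx1, a glutathione peroxidase, stood at 6.90, 6.84 and 5.92 in KOSR/LIF against 5.62, 5.09 and 4.69 in serum/LIF (1.42 ± 0.32, adjusted p = 0.0298, and 0.11 without serum/LIF replicate 3), and Selenow, a small selenoprotein, at 4.63, 4.80 and 5.36 in KOSR/LIF against 3.70, 3.22 and 2.87 in serum/LIF (1.67 ± 0.39, adjusted p = 0.0334, and 0.12 without serum/LIF replicate 3). Gpx1 did not pass with cell line as a block (0.17), nor Selenow without KOSR/LIF replicate 3 (0.0941) or in the value table (0.0568). Gpx4, another selenoprotein, changed by -0.02 ± 0.32. Iron and metal handling genes rose in 1 and fell in 1 of 17 tested (median -0.39). In iron handling, the exporter gene Slc40a1, ferroportin, fell (-2.17 ± 0.46, adjusted p = 0.0234) and the endosomal reductase gene Steap3 rose (1.50 ± 0.34, adjusted p = 0.0303), with highest leave-one-out p-values of 0.0916 for Slc40a1 without serum/LIF replicate 1 and 0.12 for Steap3 without serum/LIF replicate 1 and, without KOSR/LIF replicate 3, 0.0607 for Slc40a1 and 0.0785 for Steap3. Steap3 had 0.0638 with cell line as a block. Hypoxia-inducible genes rose in 2 of 17 tested with none lower (median 0.56). Car9, a carbonic anhydrase induced by low oxygen, rose by 2.15 ± 0.43 (adjusted p = 0.0181, 0.0775 without serum/LIF replicate 1 and 0.0783 in the value table). None of 26 cytosolic ribosomal protein genes, 25 oxidative phosphorylation genes and 21 glycolysis genes passed with all arrays, and their medians were -0.20, -0.05 and -0.06. At an unadjusted p under 0.05 in limma, 0 of the ribosomal genes were higher and 0 lower, 0 and 0 of the oxidative phosphorylation genes, and 0 and 0 of the glycolysis genes. The 17 mesoderm and primitive streak genes gave no call either, with 2 higher and 2 lower at that level.

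Few members of the cell cycle, p53, Notch and two-cell lists passed. Mycn, the MYC gene most active in ES cells, stood at 3.37, 3.44 and 4.16 in KOSR/LIF against 5.27, 5.25 and 4.67 in serum/LIF (-1.41 ± 0.32, adjusted p = 0.0293, 0.12 without serum/LIF replicate 1 and 0.0691 with cell line as a block). Cdkn2c, the CDK inhibitor p18, rose by 3.03 ± 0.57 (adjusted p = 0.0136, 0.0708 without serum/LIF replicate 1 and 0.0789 with cell line as a block), or by 1.69 with dim signals lifted. Its change was 3.84 without serum/LIF replicate 3. Perp, a p53 target of desmosomes, stood at 1.97, 1.90 and 2.73 in KOSR/LIF against 4.52, 3.33 and 4.47 in serum/LIF (-1.91 ± 0.36, adjusted p = 0.0132, and 0.071 without serum/LIF replicate 1). Jag1, a Notch ligand, fell by 1.57 ± 0.29 (adjusted p = 0.0124, 0.0541 without serum/LIF replicate 1, 0.24 in the value table and 0.0505 with cell line as a block). Two-cell embryo genes had the highest median of any list, 1.95 over 13 members, yet 1 rose and 1 fell. Usp17lc, a deubiquitinase gene, rose by 1.40 ± 0.28 (adjusted p = 0.0174), and Zfp352, a zinc finger gene, fell by 1.54 ± 0.35 (adjusted p = 0.0293). Their highest leave-one-out p-values were 0.0748 for Usp17lc without serum/LIF replicate 1 and 0.11 for Zfp352 without serum/LIF replicate 1, and with cell line as a block 0.0658 for Usp17lc and 0.0579 for Zfp352. Zfp352 did not pass without KOSR/LIF replicate 3 (0.0705), and neither gene passed in the value table (0.0539 for Usp17lc and 0.29 for Zfp352, with a change of -0.90 for Zfp352). A second, dimmer Zfp352 probe went the other way (1.03) and did not pass. Zscan4c, the marker of the 2-cell-like state, stood at 2.35, 3.63 and 3.75 in KOSR/LIF against 1.59, -1.17 and -0.80 in serum/LIF, so that the change of 3.37 ± 1.29 did not pass (adjusted p = 0.18).

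Outside these groups, other genes were among the largest rises and falls. Wfdc15a, a small protease inhibitor-like gene, stood at 1.91, 1.26 and 0.26 in KOSR/LIF against -5.08, -3.47 and -3.42 in serum/LIF (5.13 ± 0.66, adjusted p = 0.00392), and held in all 6 fits. Kctd12b, a potassium channel tetramerisation domain gene of the X chromosome, stood at -6.14, -3.94 and -4.38 in KOSR/LIF against 0.20, 0.19 and 0.01 in serum/LIF (-4.95 ± 1.18, adjusted p = 0.0369, -3.75 with dim signals lifted) and lost the call in every leave-one-out fit (highest 0.12, without KOSR/LIF replicate 1, and 0.0747 without KOSR/LIF replicate 3), and its change was -4.29 without KOSR/LIF replicate 1. Slc23a1, a vitamin C transporter, fell at least 12.2-fold (adjusted p = 0.0184, and 0.0815 without serum/LIF replicate 1). Aadac, an esterase, fell at least 4.78-fold (adjusted p = 0.0156, and 0.0716 without serum/LIF replicate 1). Clvs2, a clathrin-associated lipid-binding protein, fell at least 5.43-fold (adjusted p = 0.00652), Lypd6b, a GPI-anchored Ly6 family protein, at least 4.33-fold (adjusted p = 0.0064), and Tfap2e, an AP-2 transcription factor, at least 2.65-fold (adjusted p = 0.00771). Those 3 held in all 6 fits. Without KOSR/LIF replicate 3 the bounds were 7.72-fold for Aadac, 7.01-fold for Lypd6b and 4.29-fold for Tfap2e. Kis2 had no KOSR/LIF array well above background, and its probe fell at least 3.49-fold, or 5.65-fold without KOSR/LIF replicate 3 (adjusted p = 0.0465, 0.0458 without that array, 0.11 in the value table, 0.0697 with cell line as a block and 0.17 without serum/LIF replicate 1).

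Other members of these and further lists passed as well. The changes and adjusted p-values were Apoe (-1.39 ± 0.32, adjusted p = 0.031), Slc38a2 (-1.50 ± 0.32, adjusted p = 0.0228), Tek (-1.45 ± 0.35, adjusted p = 0.0381) and S100a4 (-2.22 ± 0.51, adjusted p = 0.0322), where Apoe is a lipid carrier, Slc38a2 an amino acid transporter, Tek the angiopoietin receptor and S100a4 a fibroblast calcium-binding protein. Their highest leave-one-out p-values were 0.12 for Apoe without serum/LIF replicate 1, 0.0911 for Slc38a2 without serum/LIF replicate 2, 0.15 for Tek without serum/LIF replicate 2 and 0.12 for S100a4 without serum/LIF replicate 3, and with cell line as a block 0.061 for Apoe, 0.0643 for Slc38a2, 0.0915 for Tek and 0.0467 for S100a4. The others were Egln1 (1.53 ± 0.35, adjusted p = 0.0304), Gstm1 (-1.50 ± 0.33, adjusted p = 0.0276), Sesn1 (1.42 ± 0.28, adjusted p = 0.0164) and Trp53inp1 (-1.04 ± 0.27, adjusted p = 0.0491). Egln1 is an oxygen-sensing prolyl hydroxylase, Gstm1 a glutathione transferase, and Sesn1 and Trp53inp1 are p53 targets. Their highest leave-one-out p-values were 0.11 for Egln1 without serum/LIF replicate 3, 0.11 for Gstm1 without serum/LIF replicate 2, 0.0801 for Sesn1 without serum/LIF replicate 1 and 0.15 for Trp53inp1 without serum/LIF replicate 1, and with cell line as a block 0.0505 for Egln1, 0.0536 for Gstm1, 0.0638 for Sesn1 and 0.15 for Trp53inp1. Without KOSR/LIF replicate 3 the adjusted p-values of the 8 genes were 0.0356 for Apoe, 0.0563 for Slc38a2, 0.088 for Tek, 0.097 for S100a4, 0.0483 for Egln1, 0.0743 for Gstm1, 0.008 for Sesn1 and 0.0775 for Trp53inp1, and the value table gave 0.0271 for Apoe, 0.12 for Slc38a2, 0.17 for Tek, 0.10 for S100a4, 0.24 for Egln1, 0.0237 for Gstm1, 0.00286 for Sesn1 and 0.42 for Trp53inp1.

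Markers of other cell types were read on every array, as the log2 of their summed linear levels. All 6 ES cell markers were well above background on every array, with sums of 8.22, 8.10 and 7.82 on KOSR/LIF and 8.65, 8.91 and 8.44 on serum/LIF, so every KOSR/LIF array was below every serum/LIF array. The 9 feeder fibroblast markers summed to 3.16, 3.60 and 2.86 on KOSR/LIF and 2.25, 1.97 and 3.81 on serum/LIF, with 7 of the 9 seen on some KOSR/LIF array and 9 of the 9 on some serum/LIF array. In the fibroblast list Col1a2, a collagen I chain, rose (1.97 ± 0.44, adjusted p = 0.0271, 0.11 without serum/LIF replicate 1 and 0.13 with cell line as a block), while Col1a1 (0.44 ± 0.88) and Col3a1 (0.49 ± 0.89) did not pass. The 6 trophoblast markers summed to 0.78, 1.42 and 0.14 on KOSR/LIF and 1.24, 0.51 and 0.71 on serum/LIF, and Tpbpa was well above background on none of the 6 arrays. Neural markers summed to 2.67, 2.66 and 3.69 on KOSR/LIF and 2.47, 2.99 and 2.69 on serum/LIF, mesoderm markers to 2.77, 2.79 and 4.74 on KOSR/LIF and 2.93, 2.70 and 3.50 on serum/LIF, and blood markers to 0.06, -0.21 and -0.42 on KOSR/LIF and -0.39, -0.22 and -0.21 on serum/LIF. The neural and mesoderm sums were highest on KOSR/LIF replicate 3. The part of these other cell types in the changes above was not tested.

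**Figure D5:**
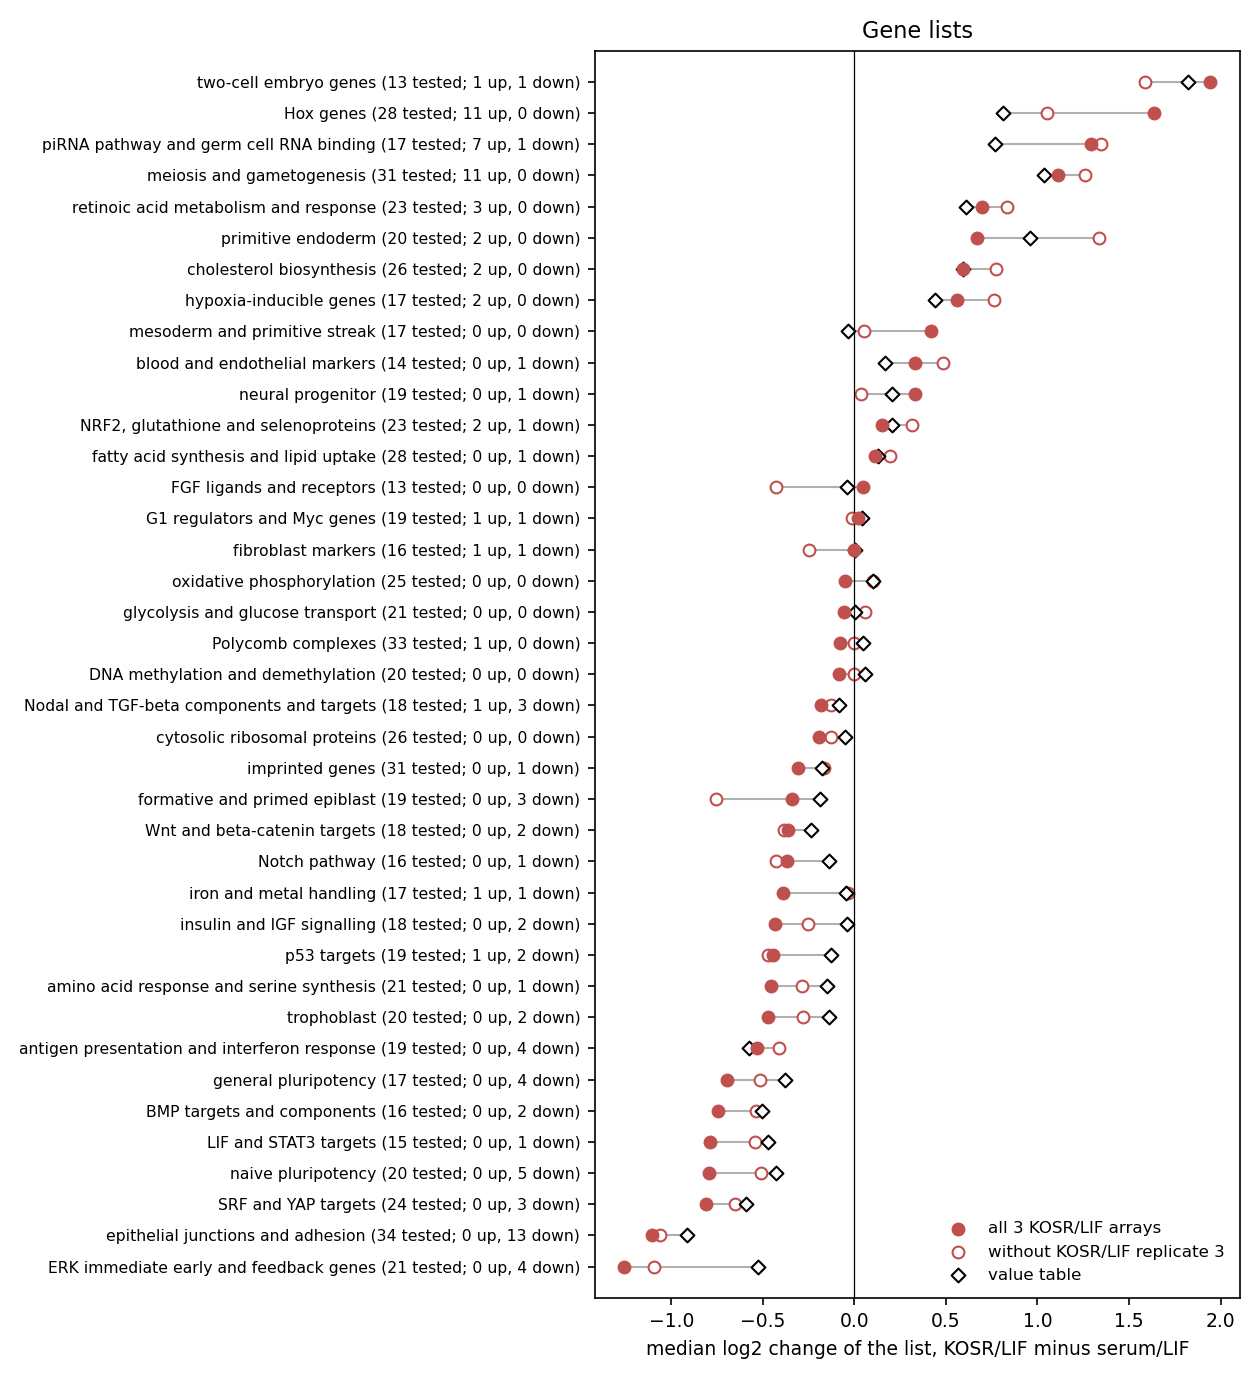
Median log2 change (KOSR/LIF minus serum/LIF) of 39 gene lists with all arrays (filled circles), without KOSR/LIF replicate 3 (open circles) and on the deposited value table (diamonds), with the number of members tested and called. Hox, piRNA and meiosis genes lie above 0 and epithelial junction genes below 0 in all 3 versions, while the primitive endoderm median is 0.67 with all arrays and 1.34 without replicate 3.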

How the data were processed

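Total RNA from 11 cultures was hybridised to 11 one-colour Agilent arrays. Per the file headers, the authors extracted intensities with Feature Extraction 11.0.1.1 from a probe design on mouse build mm9, giving a background-subtracted processed intensity per spot. Log2 values were computed here from these deposited intensities, minus each array's 75th percentile. Control spots and outlier flags were left out, spots of a probe were averaged, and probes were named through their RefSeq accession. Probes well above background on at least 3 of 11 arrays were kept, and the brightest probe stood for its gene. limma 3.58.1 in R 4.3.3 was fitted to all 11 arrays with no covariate, and p-values were Benjamini-Hochberg adjusted over 16279 genes, with a threshold of 0.05. The fit was tested on simulated data with 50 changed genes per size, where all arrays of a gene had the same SD and none was faint. It called 12% of true rises of 1 log2 unit, 72% of rises of 2 and 86% of rises of 3. It called 44% of true falls of 2. Over all unchanged genes of the simulation there were 6 false calls. A gene that did not pass may therefore still have changed. The authors' value table, of linear intensities made by steps that the labels and headers do not state, was log2 transformed and fitted in the same way.

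The members and gene lists were chosen with earlier results of these data known. Genes were named by rule: a fixed set of 20 pluripotency, germ cell and lineage genes, per list up to 3 members past the threshold with the largest changes in the commoner direction and 1 in the other, the 12 largest rises and falls over all genes without clone or predicted symbols, the next 6 each way without KOSR/LIF replicate 3, and the 6 widest gaps each way of that array. Sycp1, Sycp3, Ddx4, Nanos3, Lama1, Col4a1, Axin2, Bmper, Id3, Id4, Socs3, Gpx4, Zscan4c, Col1a1 and Col3a1 were chosen after their values were seen. Other settings tried were normalization, dim-probe filter, probe choice, scan day and slide, array weights and leaving out each array. Same-line arrays of the 2 media deviated together weakly (r = -0.0016, 0.138 and 0.126 for E14, HVJu9.3 and HVJu5.1). The same cell lines were used in both media, per the labels, so the fit with cell line as a block is given beside the calls it changes. Lines are independent clones per the design text, but each was cultured once per medium, so the number of arrays limits the precision. Normexp background correction, tried as another setting, was run on the median signal, since the files used here hold no mean signal. Columns of per-sample values not used numbered 0. A few genes that the rule names are not reported here.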

Additional observations from a re-analysis of the deposited data

Results flagged for a closer look

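With 1 array per line and medium, the difference between KOSR/LIF and serum/LIF could be set out for each line, and in 14 of 39 lists the lines had medians of opposite sign. In 7 of these a line reached 0.5 in size. Primitive endoderm genes had a median of -0.65 in HVJu5.1, the line of the faint KOSR/LIF replicate 3, against 1.44 in E14 and 1.28 in HVJu9.3. Iron and metal handling genes had -1.03 in HVJu5.1, 0.049 in E14 and -0.041 in HVJu9.3. In E14, fibroblast markers had -0.78 and glycolysis genes 0.50, while the other lines had 0.073 and 0.27 for fibroblast markers and -0.27 and -0.21 for glycolysis. Mesoderm genes had -0.67 in E14, 0.19 in HVJu9.3 and 0.68 in HVJu5.1, and neural progenitor genes had 0.93 in HVJu5.1, 0.15 in E14 and -0.32 in HVJu9.3. The Nodal and TGF-beta list stood at 0.0082 in HVJu9.3 against -0.52 in E14 and -0.57 in HVJu5.1. Of the 20 genes always named, those with lines of opposite sign were Klf4, with -0.55 in E14 and 0.50 in HVJu5.1, Prdm14, with -0.68 in E14 and 0.052 in HVJu9.3, Otx2, with 0.45 in E14 and -0.80 in HVJu9.3, and Hhex, with 0.74 in E14 and -0.18 in HVJu5.1. The lines of KOSR/LIF replicates 1 and 2 are those of the labels, which the value table puts in doubt. None of these differences between lines was tested. Outside the named genes, 26 probes without a gene name passed the threshold, 20 higher and 6 lower in KOSR/LIF.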

How the results depend on the processing

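Of 16279 genes, 744 changed, and this count moved with the processing. Normexp background correction gave 142 higher and 232 lower genes (374 changed), and no filter on dim probes gave 244 and 207 (451 changed). Quantile normalization gave 250 higher genes. Array weights gave 1696 and 1499 (3195 changed), and slide as a random block 878 and 784 (1662 changed). With cell line as a replicate block there were 481 changed genes, 182 of them lower, or 203 lower with the lines of KOSR/LIF replicates 1 and 2 exchanged. With the replicate number as a block 238 were lower. Leaving out 1 array gave 123 to 356 higher, 102 to 275 lower and 225 to 631 changed genes. The cause was not tested. Reversed values were those of genes that did not pass, apart from Egr2, which was 0.12 under normexp. Nanog was 1.16 as a mean of its probes. Klf4 was 0.089 under quantile normalization, 0.024 under median scaling, 0.042 in the value table, 0.16 with array weights, 0.11 with slide and 0.20 with scan day as a block, 0.21 within scan day 1, and -0.21 to 0.32 with 1 array left out. Otx2 was 0.10 in the value table and -0.44 to 0.041 with 1 array left out, and Hhex was -0.053 to 0.70. A probe near background on the faint array gives only a bound, which limits every dim gene.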
